A study of Homo sapiens with 6 samples.

Results

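Selenoprotein P, 2 receptors that take it up and 7 genes of the selenium pathway were examined in 2 ovarian cancer cell lines. The 10 genes are SELENOP, LRP2, LRP8, GPX1, GPX2, GPX3, GPX4, TXNRD1, SEPHS2 and SELENOW. They were found by the gene symbol in the array's annotation, each had 1 probe, and they are 10 of 17687 genes with a symbol. SELENOP and LRP2 were chosen by their high ratios to siControl, and the set was built around them, so the ratios to siControl below are a description with no test.

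Expression was measured on 6 Affymetrix Clariom S arrays, which give 1 value per transcript. RMG1 cells, established from an ovarian clear cell carcinoma, received siControl or an siRNA against CPNE8, siCPNE8 #A or #B. OVCAR3 cells, established from a high-grade serous carcinoma, received siControl or an siRNA against BHLHE41, siBHLHE41 #A or #B. There was 1 array per siRNA and line, so #A and #B are different siRNAs against the same gene and not repeats of a culture. CPNE8 encodes a calcium-dependent phospholipid-binding protein of the copine family, and BHLHE41 encodes a basic helix-loop-helix repressor of transcription. Levels are log2 values, and background means the level that 95% of the negative control probes of an array do not exceed, 7.86 to 8.47. Transcript probes above background made up 37.2% to 41.2% of each array.

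Both targets read lower with each of their siRNAs. CPNE8 kept 11.7% of its signal with siCPNE8 #A and 27.8% with siCPNE8 #B in RMG1, and BHLHE41 kept 35.0% with siBHLHE41 #A and 54.2% with siBHLHE41 #B in OVCAR3. Among the markers of the lines, ANXA4 of clear cell tumors had a mean of 14.94 in RMG1 and 9.41 in OVCAR3, while of the serous markers WT1 and MUC16 were higher in OVCAR3 and PAX8 was higher in RMG1 (15.42 against 14.08). NAPSA, another clear cell marker, was below background on all 6 arrays. The measured markers of immune, stromal, endothelial and liver cells were below background on all 6 arrays. Over the transcript probes, Pearson's r was 0.990 to 0.993 within a line and 0.920 to 0.928 across the lines.

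Selenoprotein P is a secreted glycoprotein, made mainly by the liver, that carries selenium in plasma as several selenocysteine residues. Cells take it up through receptors of the low-density lipoprotein receptor family, mainly LRP8 (also called ApoER2) in brain and testis and LRP2 (megalin) in the kidney tubule. The selenium is then built into new selenocysteine, the amino acid at the active site of glutathione peroxidases and thioredoxin reductases, which reduce peroxides and disulfides.

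The promoters of the carrier and both receptors are shown because these are the genes whose ratios set the pattern described below. The sequences are from RefSeq on GRCh38.p14 and run from 250 bases before to 50 bases after the start of the transcript. All 10 genes matched the table, with 13 windows in all, since TXNRD1 has 2 and GPX4 has 3. Capitals mark matches on either strand to 5 motifs: the E-box CACGTG, the FOXO element GTAAACA, the core of the antioxidant response element TGACNNNGC, the TATA box TATAAA and the GC box GGGCGG. SELENOP lies at chr5:42811843-42812142, LRP2 at chr2:169362485-169362784 and LRP8 at chr1:53328021-53328320, all on the minus strand.
SELENOP: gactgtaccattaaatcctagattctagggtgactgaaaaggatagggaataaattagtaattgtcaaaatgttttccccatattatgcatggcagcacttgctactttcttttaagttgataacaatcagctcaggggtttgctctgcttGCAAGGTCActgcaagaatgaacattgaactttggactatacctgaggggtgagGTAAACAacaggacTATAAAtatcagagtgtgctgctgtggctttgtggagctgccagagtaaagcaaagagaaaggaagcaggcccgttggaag
LRP2: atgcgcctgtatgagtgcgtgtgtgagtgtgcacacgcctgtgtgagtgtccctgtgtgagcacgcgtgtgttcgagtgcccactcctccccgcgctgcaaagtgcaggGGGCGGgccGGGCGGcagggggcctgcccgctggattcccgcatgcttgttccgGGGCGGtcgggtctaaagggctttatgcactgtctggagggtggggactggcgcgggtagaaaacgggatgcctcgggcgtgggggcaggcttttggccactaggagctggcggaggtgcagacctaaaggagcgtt
LRP8: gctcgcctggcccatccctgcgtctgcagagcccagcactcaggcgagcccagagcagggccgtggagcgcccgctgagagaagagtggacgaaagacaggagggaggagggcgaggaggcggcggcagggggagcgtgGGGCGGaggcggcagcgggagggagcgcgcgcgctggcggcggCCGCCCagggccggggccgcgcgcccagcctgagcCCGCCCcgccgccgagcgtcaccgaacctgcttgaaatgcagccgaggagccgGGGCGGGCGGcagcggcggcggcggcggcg

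The SELENOP window, with a GC content of 42.0%, held a FOXO element at -45 (counted from the transcript start to the first base of the match), a TATA box at -31 and, on the opposite strand, an antioxidant response element core at -99. FOXO elements occurred in 3.42% of 35116 promoter windows of this length, TATA boxes in 11.5% and antioxidant response element cores in 13.3%. The window of LRP2 held 3 GC boxes and the window of LRP8 held 5, of which 2 overlap; GC boxes occurred in 45% of all windows. The E-box, the letters that BHLHE41 protein is known to bind, was in neither receptor window and was found among the 10 genes in GPX1 and SEPHS2, against 7.26% of all windows. Antioxidant response element cores were also found in both windows of TXNRD1 and in that of GPX2.

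**Figure D1:**
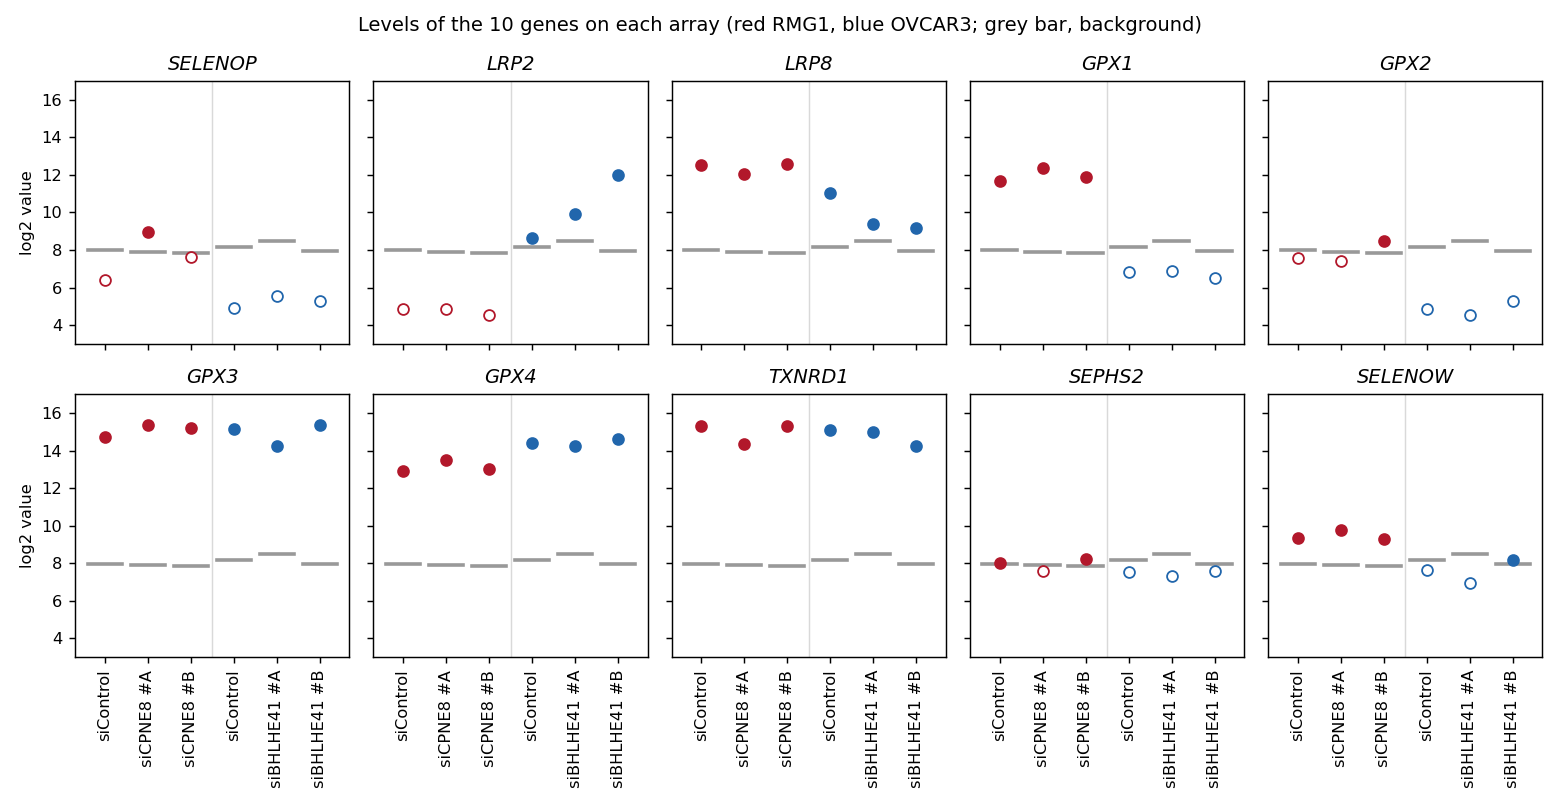
Log2 value of each of the 10 genes on each of the 6 arrays, RMG1 in red and OVCAR3 in blue, with 1 point per array. Grey bars give the background of each array, and open points lie at or below it. SELENOP exceeded background with siCPNE8 #A alone, and LRP2 was above it on the 3 OVCAR3 arrays.

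SELENOP, the carrier, was at the limit of detection in RMG1 and below it in OVCAR3. In RMG1 its log2 value was 6.40 with siControl, 8.96 with siCPNE8 #A and 7.62 with #B. Only the array with #A was above background, so the siControl level is known only as a bound. The measured log2 ratios to siControl were 2.57 with #A and 1.22 with #B, a mean of 1.89 ± 0.95 (SD, n = 2 siRNAs). Set against the background of the siControl array, the level with #A was at least 1.98-fold higher; with #B the level was below background too, so no fold is given. Such bounds take the mean log2 value of the brighter group over the background of the dimmer one. In OVCAR3 the values were 4.90 with siControl, 5.55 with siBHLHE41 #A and 5.26 with #B, all below background.

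LRP2, or megalin, was below background in RMG1 and above it in OVCAR3. In OVCAR3 its log2 value was 8.65 with siControl, 9.91 with siBHLHE41 #A and 11.99 with #B. The log2 ratios were 1.26 with #A and 3.34 with #B, or 2.40-fold and 10.2-fold, with a mean of 2.30 ± 1.47 (SD, n = 2 siRNAs). Both siRNAs were on the same side of siControl, but the siRNAs differed from each other by more than #A differed from siControl. The siRNA that left more of the BHLHE41 signal, #B, was the one with the higher LRP2 level. In RMG1 the LRP2 values were 4.86 with siControl, 4.86 with siCPNE8 #A and 4.53 with #B.

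LRP8, the other receptor of selenoprotein P, was above background on all 6 arrays. Its log2 value in OVCAR3 was 11.02 with siControl, 9.37 with siBHLHE41 #A and 9.19 with #B. The log2 ratios of -1.65 and -1.83 correspond to 0.318 and 0.281 of the siControl signal, and average -1.74 ± 0.13 (SD, n = 2 siRNAs). In the OVCAR3 arrays the levels of the receptors thus moved in opposite directions, LRP2 above siControl and LRP8 below it with each siRNA. In RMG1 the LRP8 values of 12.55 with siControl, 12.05 with siCPNE8 #A and 12.59 with #B gave log2 ratios of -0.50 and 0.03.

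A gene counted as higher if both siRNAs gave a ratio to siControl over 1.5, and as lower if both gave a ratio under 0.66, the criterion of the study for its array probes. In RMG1, SELENOP alone of the 10 genes was higher and none was lower, while 2.56% of all 21448 transcript probes were higher and 2.69% were lower. In OVCAR3, LRP2 was higher and LRP8 was lower, while 3.09% of all transcript probes were higher and 2.13% were lower. Nothing is read from these counts, since the ratios of SELENOP and LRP2 led to the choice of the set. By the weaker of its siRNAs, SELENOP lay nearest inside the limit in RMG1, at a measured ratio of 2.33 with #B. Both values behind that ratio were below background, so it is not an estimate of a fold. GPX3 lay nearest outside the limit, at 1.37-fold with #B and 1.55-fold with #A. Past the limit with 1 siRNA alone were GPX1, GPX3, GPX4 and TXNRD1 with siCPNE8 #A, GPX2 with siCPNE8 #B, SELENOP, GPX3 and SELENOW with siBHLHE41 #A, and TXNRD1 with siBHLHE41 #B.

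**Figure D2:**
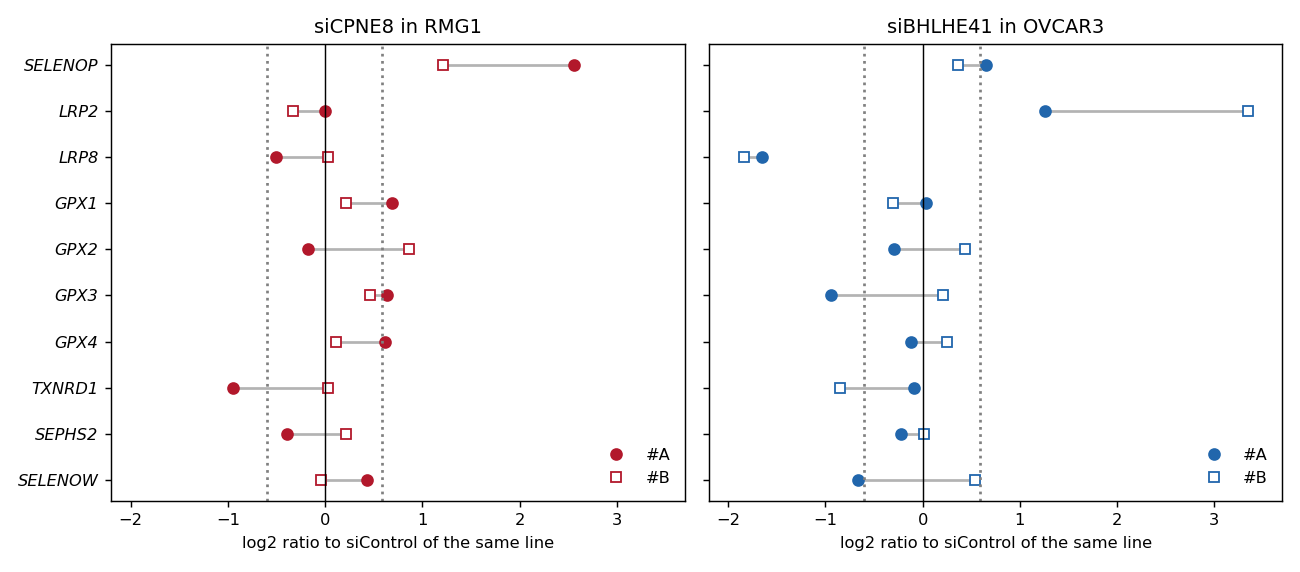
Log2 ratio of each gene to siControl within its line, with 1 point for each siRNA (filled circle #A, open square #B) and dotted lines at ratios of 1.5 and 0.66. SELENOP passed the limit with both siRNAs in RMG1, LRP2 and LRP8 in OVCAR3, and several other genes passed it with 1 siRNA.

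The glutathione peroxidases are the main selenoenzymes that remove peroxides. GPX1, the cytosolic enzyme, had log2 values of 11.65 with siControl, 12.34 with siCPNE8 #A and 11.87 with #B in RMG1. In OVCAR3 it read 6.83, 6.87 and 6.52 in the order siControl, #A, #B, below background throughout. Its RMG1 log2 ratios were 0.69 and 0.21, past the limit with #A alone.

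GPX2, the peroxidase of gut epithelium, was above background only with siCPNE8 #B. Its RMG1 values were 7.59 with siControl, 7.42 with #A and 8.46 with #B, which put the siRNAs on opposite sides of siControl. The array with #B was at least 1.40-fold above the siControl background. In OVCAR3 the values of GPX2 ran from 4.55 to 5.28.

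GPX3, the secreted plasma peroxidase, was far above background in both lines. In RMG1 it had log2 values of 14.72 with siControl, 15.35 with siCPNE8 #A and 15.18 with #B, and in OVCAR3 15.16 with siControl, 14.22 with siBHLHE41 #A and 15.36 with #B. The RMG1 siRNAs lay close together, with log2 ratios averaging 0.55 ± 0.12 (SD, n = 2 siRNAs), and the OVCAR3 siRNAs lay on either side of siControl.

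GPX4, which reduces lipid peroxides in membranes and guards against ferroptosis, was above background on all 6 arrays. Its values in RMG1 were 12.89 with siControl, 13.51 with siCPNE8 #A and 13.00 with #B. In OVCAR3 they were 14.37 with siControl, 14.26 with siBHLHE41 #A and 14.62 with #B. The log2 ratio of 0.62 with siCPNE8 #A was the only one of GPX4 past the limit.

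TXNRD1, the cytosolic thioredoxin reductase, was among the genes far above background. It had log2 values of 15.29 with siControl, 14.35 with siCPNE8 #A and 15.32 with #B in RMG1, and 15.09 with siControl, 15.01 with siBHLHE41 #A and 14.24 with #B in OVCAR3. In each line 1 siRNA gave a lower value, with a log2 ratio of -0.94 for siCPNE8 #A and -0.85 for siBHLHE41 #B, while the other siRNA gave 0.03 in RMG1 and -0.09 in OVCAR3.

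SEPHS2 makes the selenophosphate from which selenocysteine is built, and is itself a selenoprotein. Its log2 values stayed near background, between 7.59 and 8.20 in RMG1 and between 7.32 and 7.56 in OVCAR3. SELENOW, a small selenoprotein first described in muscle, had log2 values of 9.33 with siControl, 9.76 with siCPNE8 #A and 9.28 with #B in RMG1. In OVCAR3 it had log2 values of 7.62 with siControl, 6.95 with siBHLHE41 #A and 8.16 with #B, and only the last was above background. The siBHLHE41 siRNAs thus gave SELENOW log2 ratios of opposite sign, -0.67 and 0.54.

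Of the 10 genes, 4 had values above siControl with both siCPNE8 siRNAs (SELENOP, GPX1, GPX3 and GPX4) and none had values below it with both, while of all 21448 transcript probes 6993 were above and 7191 below with both. With siBHLHE41, SELENOP and LRP2 were above siControl with both siRNAs, and LRP8 and TXNRD1 were below it with both, against 7169 probes above and 7437 below. The median over the 10 genes of the mean log2 ratio was 0.27 with siCPNE8 and -0.09 with siBHLHE41, against -0.01 for all transcript probes in each line. SELENOP and LRP2 were chosen on such ratios, so nothing is read from these counts and medians.

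The genes were not chosen on the difference between the lines, but the siRNA arrays whose ratios led to the choice of SELENOP and LRP2 enter the means of the lines, so the siControl arrays alone are given too. The difference was tested with limma, 3 arrays of RMG1 against 3 of OVCAR3 whatever the siRNA, with p-values adjusted over 21448 probes. The effect of an siRNA then counts as spread within a line. Each line had 1 siControl array, so a comparison of the siControl arrays has no spread of its own. Its p-values and calls took their spread from #A against #B in both lines, the arrays that led to the choice included. The labels give the lines different media, so line and medium cannot be told apart. Of all transcript probes, 17.8% were called higher in RMG1 and 19.2% higher in OVCAR3 at an adjusted p under 0.05. Of the 10 genes, 7 were called, 5 higher in RMG1 (SELENOP, LRP8, GPX1, GPX2 and SELENOW) and 2 higher in OVCAR3 (LRP2 and GPX4). All 10 were above background on at least 1 array. A fit of the 10007 such probes called 6339 of them, among them 7 of the 10 genes, so nothing is read from this count. The siControl arrays alone called 5 of the 10 genes, all but SELENOP and SELENOW of the 7. Between the siControl arrays the median size of the difference was 1.52 over the 10 genes and 0.47 over all probes, most of which were below background.

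GPX1 differed most among the genes higher in RMG1, with a log2 difference of 5.22 (SE 0.22, limma adjusted p = 3.3e-07), and its level was at least 13.4-fold higher than in OVCAR3. LRP2 differed in the opposite direction, by -5.43 (SE 0.67, limma adjusted p = 0.00022), and was at least 4.82-fold higher in OVCAR3. That bound was 2.58-fold without siBHLHE41 #B and 1.59-fold between the siControl arrays. Between the siControl arrays alone the log2 difference of LRP2 was -3.79 and that of GPX1 was 4.83. The raised LRP2 level with siBHLHE41 thus entered the OVCAR3 mean, and the direction was the same between the siControl arrays.

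LRP8 was 5.81-fold higher in RMG1 (log2 difference 2.54, SE 0.43, limma adjusted p = 0.0015), and 1.53 higher on the log2 scale between the siControl arrays (limma adjusted p = 0.032). The receptors thus stood in opposite order in the lines, LRP8 higher in RMG1 and LRP2 higher in OVCAR3. SELENOP had a log2 difference of 2.42 (SE 0.53, limma adjusted p = 0.0060), but the arrays with siCPNE8 that led to its choice entered this mean. Between the siControl arrays the difference of SELENOP was 1.5 with a limma adjusted p of 0.15, and 5 of its 6 values were below background, so no fold is given.

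GPX4 was 2.44-fold higher in OVCAR3 (log2 difference -1.28, SE 0.21, limma adjusted p = 0.0011). GPX2 was higher in RMG1 by 2.93 (SE 0.30, limma adjusted p = 6.7e-05), with 1 of its 6 values above background. SELENOW was higher in RMG1 by 1.88 (SE 0.30, limma adjusted p = 0.00090), with an adjusted p of 0.095 between the siControl arrays. GPX3 and TXNRD1 overlapped between the lines, with differences of 0.17 (SE 0.31, limma adjusted p = 0.72) and 0.21 (SE 0.32, limma adjusted p = 0.67). SEPHS2 did not overlap but did not pass the test, with a difference of 0.45 (SE 0.20, limma adjusted p = 0.11). In all, 8 of the 10 genes had no overlap between the lines. Over all transcript probes, most of which were below background, 24% lay entirely higher in RMG1 and 24.5% entirely higher in OVCAR3.

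**Figure D3:**
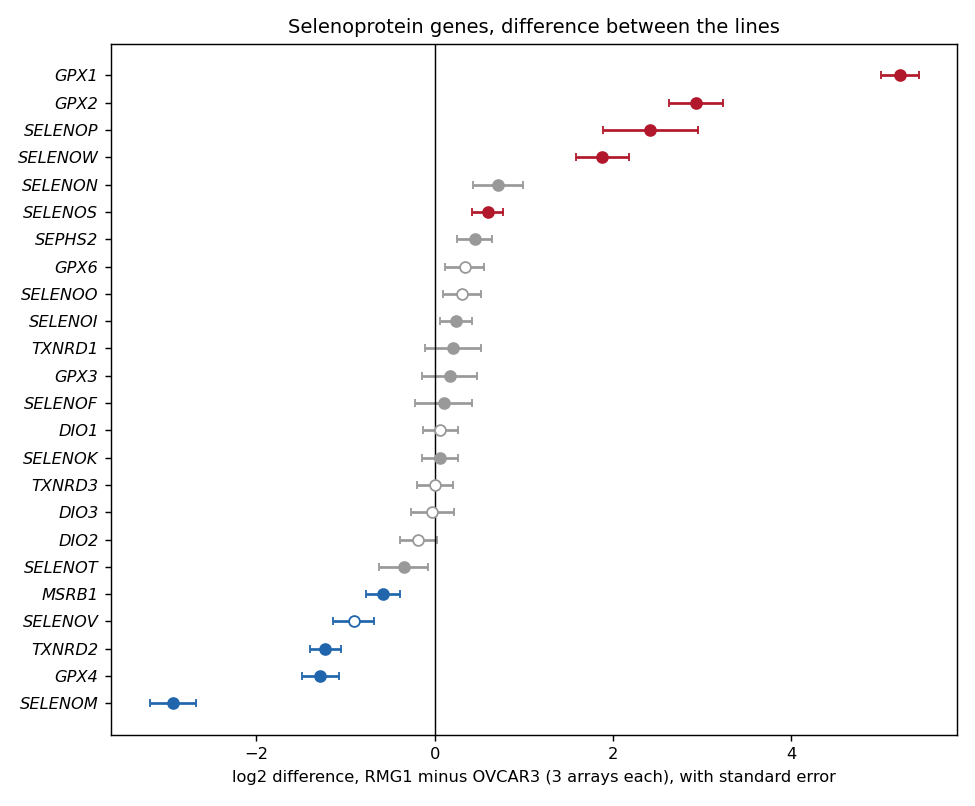
Log2 difference between RMG1 and OVCAR3 for 24 measured selenoprotein genes, with the standard error from limma (3 arrays per line). Red and blue points passed an adjusted p of 0.05, grey points did not, and open points were below background on all 6 arrays. GPX1 (5.22) and SELENOM (-2.94) lie at the ends.

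Of 16 selenoproteins measured outside the set, SELENOS was called higher in RMG1 and 4 were called higher in OVCAR3, where 17.8% and 19.2% of all probes were called. Of the 111 genes of the lists outside the set, 57 were called between the lines and 27 with the siControl arrays alone. The genes named from these lists that were not called with the siControl arrays alone were SELENOS, TXNRD2, SELENOV, LRP1, MESD, PRDX3, GSR, PPARGC1A and SREBF1. SELENOS was also not called without the RMG1 siControl array, siCPNE8 #B, siBHLHE41 #A or siBHLHE41 #B (limma adjusted p = 0.065 to 0.078). SELENOM, a redox protein of the endoplasmic reticulum, had a log2 difference of -2.94 (limma adjusted p = 3.0e-05), and was at least 1.33-fold higher in OVCAR3. TXNRD2, the mitochondrial thioredoxin reductase, had a difference of -1.23 (limma adjusted p = 0.00053, and 0.066 between the siControl arrays). SELENOV passed the test at -0.91 with all values below background. The median size of the difference was 0.32 over these 16 genes, against 0.40 over all probes.

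With the siRNAs, the other selenoproteins gave 1 call, DIO3 in RMG1, whose values were all below background. With siBHLHE41, 9 of the 16 were below siControl with both siRNAs and 2 were above it with both. Over all 21448 transcript probes these counts were 7437 and 7169. Only 8 of the 16 were above background on at least 1 OVCAR3 array, so nothing is read from the 9 and the 2. The limma test of the siRNAs set the mean of #A and #B against siControl, with 2 residual degrees of freedom. It called 0 of 21448 probes (0%) in either line at an adjusted p of 0.05. At an unadjusted p under 0.05 it gave 570 probes higher and 611 lower with siCPNE8, and 634 higher and 465 lower with siBHLHE41. With 21448 probes tested, many pass this threshold by chance, so nothing is read from these counts. Among 111 genes of the pathway lists outside the set, the smallest adjusted p was 0.859 with siCPNE8 and 0.858 with siBHLHE41, so the values given next are a description.

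The machinery that makes and inserts selenocysteine gave no call past the fold in either line, with 14 genes measured. Between the lines 6 of them were called higher in RMG1 and 3 higher in OVCAR3, where 17.8% and 19.2% of all probes were called. EEFSEC, the elongation factor that brings selenocysteine to the ribosome, had a log2 difference of -1.87 (limma adjusted p = 3.1e-05). EIF4A3, a helicase known to hold back the insertion of selenocysteine into some selenoproteins, had one of 1.48 (limma adjusted p = 0.00019). SCLY, the lyase that frees selenium from selenocysteine, had one of -1.30 with all values below background.

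Among 11 other receptors of the low-density lipoprotein receptor family, LRP1 alone was past the fold with both siRNAs in OVCAR3, and no gene was in RMG1. LRP1, a scavenger receptor for many ligands, had log2 values of 7.43 with siControl, 8.13 with siBHLHE41 #A and 8.96 with #B, and only the last was above background. Between the lines 2 of the 11 were called higher in RMG1 and 4 higher in OVCAR3, against 17.8% and 19.2% of all probes. VLDLR, the nearest relative of LRP8, was higher in RMG1 by 2.58 (limma adjusted p = 6.1e-05). SORL1, a sorting receptor, was below background on the 3 RMG1 arrays and at least 2.33-fold higher in OVCAR3 (measured difference -4.43, limma adjusted p = 8.7e-07). LRP1, above background on 1 of 6 arrays, had a measured difference of -2.38 (limma adjusted p = 0.0011), and no fold is given. Between the siControl arrays the difference of LRP1 was -1.11, with both values below background.

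Of 7 ligands, adaptors and chaperones of these receptors, APOE was past the fold in RMG1, and none was in OVCAR3. APOE, a ligand of both receptors, had log2 values of 8.82 with siControl, 9.49 with siCPNE8 #A and 9.68 with #B. Its difference between the lines was -2.45 (limma adjusted p = 0.00022), higher in OVCAR3. DAB2 and MESD, an adaptor and a chaperone of these receptors, were called higher in RMG1, by 1.84 and 1.05, with all values below background.

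A list of 12 genes covers the transport and synthesis of glutathione, the substrate of the peroxidases, and also peroxidases without selenium, catalase and superoxide dismutases. In OVCAR3, 5 of the 12 were below siControl with both siRNAs. Another 4, among them GSS of glutathione synthesis, were above it with both. SLC3A2 had log2 ratios of 0.11 with siBHLHE41 #A and -0.11 with #B. Past the fold, 3 genes were lower with both siRNAs. SLC7A11, the cystine transporter, had log2 values of 11.29 with siControl, 9.38 with siBHLHE41 #A and 9.34 with #B, log2 ratios of -1.91 and -1.94. GCLM, a subunit of the first enzyme of glutathione synthesis, read 9.51 with siControl and 8.69 with each siRNA. The siRNAs differed less in these ratios than in that of LRP8. Of 12 genes of this list 3 were lower in OVCAR3 and none was higher, the remaining one being GCLC, the catalytic subunit; of all probes 2.13% were lower and 3.09% higher.

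The list of NRF2 and its targets, which are genes of the antioxidant response, shares these 3 genes. Of 21 measured, 5 were lower with both siBHLHE41 siRNAs and none was higher, against the same shares of all probes, the others being ME1 and OSGIN1, and OSGIN1 was below background on all 6 arrays. The list's median of the mean log2 ratio was -0.38 with siBHLHE41 and 0.15 with siCPNE8, against -0.01 for all probes in each line. With siBHLHE41, 12 of the 21 were below siControl with both siRNAs and 5 were above it with both. Only 14 of the 21 were above background on at least 1 OVCAR3 array, so the median includes genes below background. TXNRD1, itself a known target of NRF2, was past the fold with siBHLHE41 #B but not #A, and with siCPNE8 #A but not #B. In RMG1, HMOX1 was higher with both siCPNE8 siRNAs, at values below background. GPX7, a peroxidase without selenium, was higher in RMG1 with log2 ratios of 0.66 and 1.25.

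Of 13 thioredoxin and peroxiredoxin genes, TXNIP was past the fold in OVCAR3 and none in RMG1. TXNIP, which binds and inhibits thioredoxin, had log2 values of 7.69 with siControl, 8.70 with siBHLHE41 #A and 8.90 with #B, the first below background. Of 18 genes linked to ferroptosis, the death by lipid peroxidation that GPX4 opposes, MBOAT1, a membrane phospholipid acyltransferase, was higher in OVCAR3 with log2 ratios of 0.61 and 0.96. CHAC1, which breaks down glutathione, was lower in RMG1 with -0.84 and -0.73, and was above background only with siControl. HMOX1 and SLC7A11 are also in the ferroptosis list.

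**Figure D4:**
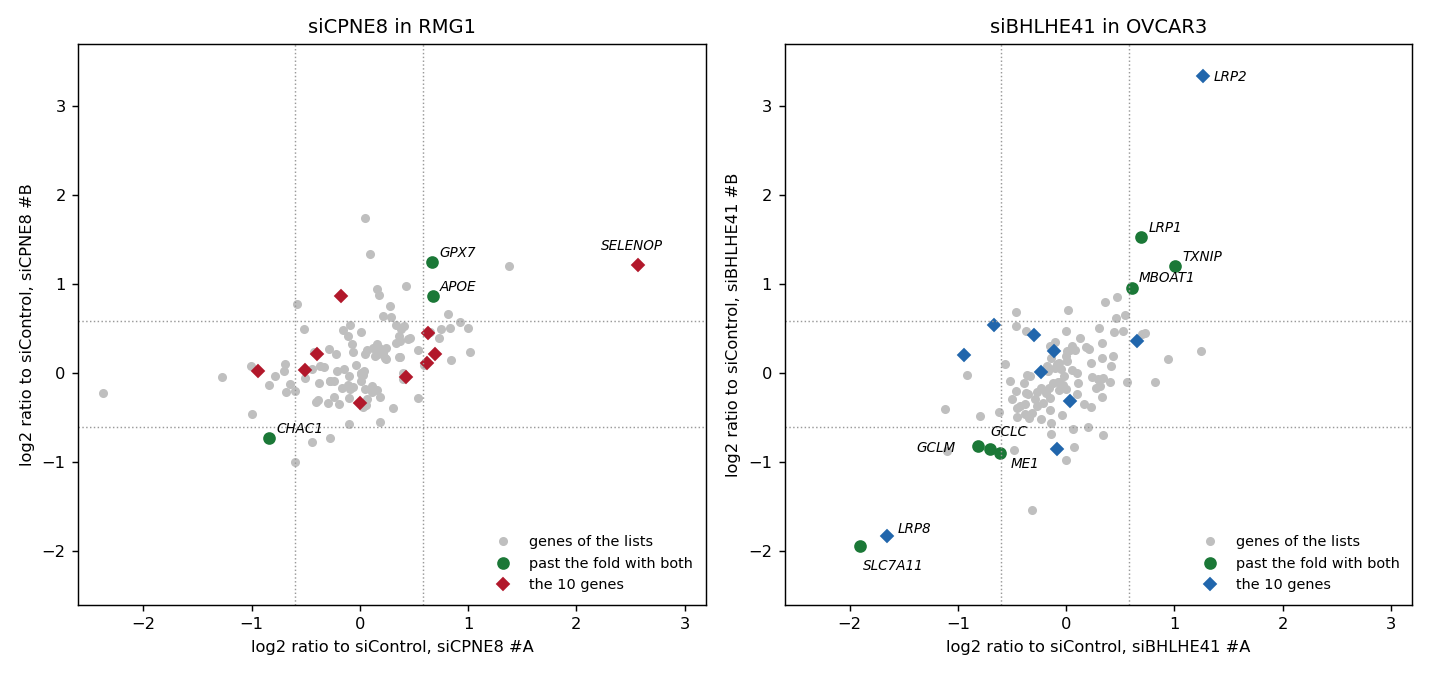
Log2 ratio to siControl with #B against that with #A, for RMG1 and OVCAR3. Grey points are the genes of the pathway lists, green points those past the ratio of 1.5 or 0.66 (dotted lines) with both siRNAs and above background on at least 1 array of the line, and diamonds the 10 genes. In OVCAR3, LRP8 lies beside SLC7A11 at the lower left.

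Between the lines, 5 of the 12 genes of the glutathione, peroxidase and catalase list were called higher in RMG1 and none higher in OVCAR3. SOD3, with all values below background, was among the 5. For this list and those below, the shares of all probes were 17.8% and 19.2%. In the fit of probes above background, 48 of 79 list genes and 6339 of 10007 probes were called. GPX7 had a difference of 5.74 (at least 7.11-fold, and at least 4.67-fold between the siControl arrays). SLC7A11 had one of 3.84 (2.86 between the siControl arrays), and GSR, glutathione reductase, one of 1.24. Of the NRF2 list 4 were called higher in RMG1 and 7 higher in OVCAR3, among them EPHX1, an epoxide hydrolase, at -5.18. HMOX1 was called at 2.21 with all values below background. Of the thioredoxin list 5 were called higher in RMG1 and 1 in OVCAR3, with differences of 3.46 for TXNIP (4.29 between the siControl arrays), 1.54 for PRDX2 and 1.11 for PRDX3. Of the ferroptosis list 7 were called higher in RMG1 and 4 in OVCAR3, where MBOAT1 had a difference of -2.44 and SLC40A1, the iron exporter, one of -2.37.

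FOXO1 and PPARGC1A are known to raise SELENOP transcription in liver cells. None of 7 measured regulators of SELENOP was past the fold with both siRNAs in either line. FOXO1 had log2 values of 10.91 with siControl, 11.38 with siCPNE8 #A and 11.31 with #B in RMG1, and was below background in OVCAR3. Its difference between the lines was 3.78 (limma adjusted p = 7.5e-07), at least 7.96-fold. PPARGC1A, below background in RMG1, was called higher in OVCAR3, by at least 1.75-fold (measured difference -2.75), as was SREBF1, with a difference of -0.98.

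The genes most like SELENOP and LRP2 over the 6 arrays were sought by Pearson's r among 5333 genes. For SELENOP these were ZSCAN9 (r = 0.991), VPS41 (r = 0.990) and ACSL4 (r = 0.988), and for LRP2 they were NCDN (r = 0.996), SEMA5A (r = 0.994) and ANPEP (r = 0.994). With 3 arrays of each line, the difference between the lines is a large part of every such r. SELENOP was above background on 1 of the 6 arrays, so its r rests largely on values below background. ACSL4 encodes the acyl-CoA ligase that supplies polyunsaturated lipids in ferroptosis. Its log2 value in RMG1 was 9.30 with siControl, 10.23 with siCPNE8 #A and 9.88 with #B. ANPEP, aminopeptidase N, had log2 values of 9.23 with siControl, 9.66 with siBHLHE41 #A and 11.33 with #B in OVCAR3. These genes were picked for their likeness, so their values are a description.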

How the data were processed

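The authors deposited 1 table of log2 values for 6 arrays, made per the submitters' processing notes with Affymetrix Expression Console and RMA (versions not given in the sources used here); RMA corrects background, normalizes between arrays and summarises probes. The highest values, 17.73 to 18.35, exceed 16, the most a 16-bit scanner can give, and no source used here describes the rescaling this implies, so true ratios may be larger or smaller. The table held 24351 probes, 21448 for transcripts and 2903 controls, of which 612 were negative. The number of arrays limits precision. The members, gene lists and tests were chosen with earlier results of these data known. Ratios to siControl are log2 differences within a line, and calls need both siRNAs. The lines, and the list genes under each siRNA, were tested with limma 3.58.1 (lmFit, eBayes) in R 4.3.3, with Benjamini-Hochberg adjustment over all transcript probes. Both fits were first tested on simulated data. No source says that arrays of a line came from separate cultures. The p-values thus measure only the spread between these samples, which may be partly technical. In the siRNA fits and the comparison of the siControl arrays, it is the spread between #A and #B, which are different siRNAs. Promoter motifs and counts used Python 3.11.15, pandas 2.3.3 and numpy 2.4.6. Named were all 10 genes; of each list, per line and direction, up to 2 genes past the fold with both siRNAs, above background and with the largest mean ratio; up to 3 per list with the largest called difference between lines; and the 3 genes most like SELENOP and LRP2, among genes above background on at least 1 array and varying by more than 1. Others named (SELENOS, DIO3, GCLC, GSS, SLC3A2, SOD3, ME1, OSGIN1, HMOX1 with siCPNE8) complete a count or qualify it and were chosen after their values were seen. Alternatives were other folds and scalings, a filter on dim probes, a variance trend, a replicate block, siControl arrays alone and arrays left out.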

Additional observations from a re-analysis of the deposited data

Results flagged for a closer look

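LRP1, a receptor of the same family as LRP2 and LRP8, moved in opposite directions in the lines: its log2 ratios to siControl were -0.60 and -1.0 with siCPNE8 #A and #B in RMG1, and 0.69 and 1.53 with siBHLHE41 #A and #B in OVCAR3. The mean ratios differed by -1.91 (RMG1 minus OVCAR3). The difference was not tested, the siRNAs have different targets, and LRP1 was below background on all 3 RMG1 arrays and on 2 of the 3 OVCAR3 arrays.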

How the results depend on the processing

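SELENOP in RMG1 and LRP2 and LRP8 in OVCAR3 stayed past the fold under each scaling and a fold of 2 and 0.5. The filter on dim probes leaves ratios unchanged and kept SELENOP through the siCPNE8 #A array alone, so it could not alter these calls. The ratio of SELENOP with siCPNE8 #B rests on values below background under every setting. Taken by 1 siRNA, the counts of the 10 genes moved: with siCPNE8, 2 to 4 were higher and 0 to 1 lower, and with siBHLHE41, 1 to 2 were higher and 2 to 3 lower. Without #A (siCPNE8 #B alone), GPX2 and SELENOP were higher; without #B, GPX1, GPX3, GPX4 and SELENOP were higher and TXNRD1 lower. With siBHLHE41, TXNRD1 was lower with #B alone, GPX3 and SELENOW were lower and SELENOP higher with #A alone. Between the lines, the siControl arrays alone called 3463 probes against 7933, with 2 residual degrees of freedom in place of 4, 27 list genes against 57 and 5 of the 10 genes, without SELENOP (1.5, limma adjusted p = 0.152) and SELENOW (1.71, 0.0949). The difference of GPX3 reversed to -0.44 with the siControl arrays alone, and ran from -0.18 (without siBHLHE41 #A) to 0.40 with 1 array left out; that of TXNRD1 ran from -0.063 (without siBHLHE41 #B) to 0.53. All were short of the threshold; the cause was not tested. SEPHS2 passed without siCPNE8 #A (0.61, limma adjusted p = 0.0367). Leaving out 1 array at a time called 7 to 8 of the 10 genes and 6828 to 7313 probes. Replicate block: with siControl, #A and #B as a block, letters that do not pair the samples, 7 genes and 7734 probes were called. Leaving out each siRNA array in the siRNA test, added after seeing the data, called 0 probes. The siRNA tests had 2 residual degrees of freedom and 1 control array per line. Values below background (SELENOP, GPX2, SEPHS2, and LRP2 in RMG1) limit what a ratio can show. Background correction and the slide could not be varied from the table of RMA values.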
